A study of Mus musculus with 20 samples.

Results

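The transcripts of 10 genes that carry cells into and out of mitosis were followed in the uterus of ovariectomized mice given estradiol (E2), bisphenol A (BPA) or HPTE. The genes were Ccna2, Ccnb1, Ccnb2, Cdc2a (now named Cdk1), Cdc25c, Aurka, Aurkb, Plk1, Cdc20 and Ube2c, that is 10 of the 27962 gene names on the array. They were picked by name for their place in the cell cycle, with earlier results of these data known. The paper had already reported Ube2c, Ccnb2, Cdc2a and Aurkb as raised at 24 h by each compound, so this was no blind choice. Each gene was read from its brightest probe over the 20 arrays. All 10 had such a probe, and each of these 10 probes was well above background on 20 of 20 arrays. All animals were ovariectomized adult C57bl6/J females of at least 10 weeks that had rested for 10 to 14 days, and the labels give no genotype beyond the strain. Vehicle mice received sesame oil (100 µl) and were labelled as collected at 24 h (n = 3). Treated mice received 250 ng E2, 750 µg BPA or 750 µg HPTE under the skin, and the uterus was taken 2 h or 24 h later. This route and the oil vehicle are those of the labels, while the study's methods describe a saline vehicle and the intraperitoneal route for its E2 profiles, so whether oil was the matched control for E2 is not settled. There were 3 arrays in each treated group except E2 24 h, which had 2. Each array was taken to hold the RNA of 1 uterus, whereas the paper's methods describe RNA from pooled uteri. HPTE is the active metabolite of the pesticide methoxychlor. Like BPA it holds a pair of hydroxyphenyl rings on a central carbon, which carries methyl groups in BPA and a trichloromethyl group in HPTE. The mass of E2 given differed from that of the other compounds, whereas BPA and HPTE were given at the same mass.

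Entry into mitosis is driven by the kinase CDK1, encoded by Cdc2a, once it has bound a cyclin of the A or B type and lost its inhibitory phosphates. Exit from mitosis requires that the anaphase-promoting complex, a ubiquitin ligase, marks the B cyclins and other proteins for destruction. In the ovariectomized uterus few cells divide, and an estrogen dose is known to bring the epithelial cells through DNA synthesis and into division about a day later.

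The promoters of these genes are known to share a layout in which CCAAT boxes, bound by NF-Y, lie near the transcription start, often with a cell cycle homology element (CHR) that the DREAM and MuvB complexes bind. Since the members moved together, their promoter windows were searched. RefSeq windows on GRCm38.p6 were matched for 7 of the 10 members. All 7 held CCAAT on either strand within 250 bases before the start, as did 33.8% of all 32851 windows. The CHR letters TTTGAA or TTCGAA were found in 4 of 7 (Ube2c, Cdc20, Ccnb2 and Cdc2a, each as TTTGAA) and in 17.1% of all windows. Both motifs together were present in these same 4 members and in 6.02% of all windows. An estrogen response element searched as GGTCANNNTGACC was in 0 of 7 and in 0.0639% of all windows. No CCAAT match shared a base with a TTTGAA match in these members. In 5 members CCAAT boxes were 31 to 33 bases apart, counted from first base to first base, a spacing found in 0.871% of all windows. This range of spacing was chosen after the members' sequences were seen. These 5 are shown for that spacing as the 150 bases before the start, 5′ to 3′, with CCAAT (or ATTGG, its reverse complement) and TTTGAA (or TTCAAA) in capitals.
Ccnb1 promoter, chr13:100786487-100786636, minus strand: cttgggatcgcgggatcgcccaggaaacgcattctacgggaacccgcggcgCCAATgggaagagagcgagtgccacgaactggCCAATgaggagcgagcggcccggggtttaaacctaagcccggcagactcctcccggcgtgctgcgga
Ccnb2 promoter, chr9:70421555-70421704, minus strand: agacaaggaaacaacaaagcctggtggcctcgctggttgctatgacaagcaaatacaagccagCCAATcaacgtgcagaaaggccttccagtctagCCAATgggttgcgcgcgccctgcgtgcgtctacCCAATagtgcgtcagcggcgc
Cdc2a promoter, chr10:69352913-69353062, minus strand: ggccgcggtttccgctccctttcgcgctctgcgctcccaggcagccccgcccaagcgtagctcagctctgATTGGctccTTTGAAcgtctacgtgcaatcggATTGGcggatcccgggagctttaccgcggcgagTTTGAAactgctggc
Aurka promoter, chr2:172370571-172370720, minus strand: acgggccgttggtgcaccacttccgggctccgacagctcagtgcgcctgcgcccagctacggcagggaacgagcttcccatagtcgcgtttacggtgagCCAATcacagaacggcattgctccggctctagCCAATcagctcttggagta
Ube2c promoter, chr2:164769779-164769928, plus strand: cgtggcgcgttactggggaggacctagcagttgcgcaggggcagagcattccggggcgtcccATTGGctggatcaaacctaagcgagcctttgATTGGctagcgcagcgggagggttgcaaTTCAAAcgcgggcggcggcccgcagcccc
The gap was 32 bases in Ccnb1, Cdc2a and Aurka, 33 bases in Ccnb2, where 3 boxes followed each other, and 31 bases in Ube2c. The only TTTGAA of Ccnb2 lay further out, with its first base at -167 counted from the start. Cdc20 had CCAAT at -53 and -8 with TTTGAA between them at -18, and Plk1 had a single CCAAT at -14. Of the 3 members with no matched window (Ccna2, Aurkb and Cdc25c), the array's own mm7 coordinates place the brightest Ccna2 probe at chr3:36375837-36375896 on the minus strand and the Aurkb probe at chr11:69133109-69133168 on the plus strand. A match is a description of the letters in the window, and no binding was measured here.

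The 6 markers of uterine tissue (Esr1, Pgr, Hoxa10, Hoxa11, Emx2 and Msx1) were well above background on every array. Between 73.1% and 81.7% of spots per array were well above background, which limits what dim probes can show. The number of arrays limits the precision. The arrays lay on 6 slides. Slide 6, with BPA 24 h replicate 3 and HPTE 24 h replicate 2, was scanned on a different day from the others. Other tissues left traces that moved with the groups. The summed signal of 9 markers of maturing sperm cells was 57900 to 196000 arbitrary units on vehicle arrays and 559 to 1360 under E2 at 24 h. It was 11400 to 23800 and 5750 to 10400 under BPA at 2 h and 24 h, and 3560 to 10700 and 2390 to 3270 under HPTE. That of 8 pancreas markers was 835 to 936 on vehicle arrays, reached 3040000 on an E2 2 h array and was 5470 to 13600 under E2 at 24 h. Vehicle replicate 1 had both the highest sperm cell signal and the highest level of the mitotic regulators among vehicle arrays, a median of 0.29 above the vehicle mean on the log2 scale. The part of these tissues in the results was not tested.

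At 24 h every one of the 10 regulators was higher than in vehicle under each compound. Levels are given as log2 signal minus the 75th percentile of the array, differences are on the same log2 scale, and a call means a limma adjusted p under 0.05 over the 32460 probes tested. All 10 were called higher under E2 at 24 h, where 26.3% of tested probes were, with a median difference of 3.05 (range 2.44 to 3.59). All 10 were called higher under BPA, against 5.09% of probes, with a median of 1.67 (range 1.19 to 2.04). Under HPTE all 10 were called, against 14.9% of probes, with a median of 2.56 (range 2.05 to 3.02). In each group every array lay above every vehicle array for all 10 genes, as did 31.3% (E2), 17.3% (BPA) and 22.2% (HPTE) of all tested probes. Set against the vehicle array of the same slide, the median over the 10 genes was 3.17 (E2), 2.01 (BPA) and 2.63 (HPTE) on slide 5 and 1.44 (BPA) on slide 3, with all 10 genes higher each time. Under E2 at 24 h the median change of all probes was -0.15. In bulk RNA a larger share of dividing cells and more RNA per cell cannot be told apart. The summed signal of 7 epithelial markers, all well above background on every array, was 141000 to 166000 arbitrary units on vehicle arrays, 193000 to 209000 under BPA, 235000 to 259000 under HPTE and 291000 to 335000 under E2 at 24 h. That of 5 myometrium markers was 458000 to 514000, 550000 to 618000, 674000 to 759000 and 774000 to 790000 in the same order of groups, and that of 4 stroma markers was 94500 to 108000, 129000 to 192000, 199000 to 220000 and 229000 to 243000. Single markers did not all follow these sums. By group medians 4 of 7 epithelial markers (Krt8, Krt19, Cdh1 and Epcam), 3 of 5 of the myometrium and 1 of 4 of the stroma (Col1a1) stood in the order vehicle, BPA, HPTE and E2. The epithelial Wnt7a went from 2550 in vehicle to 988 under E2 and Foxa2 from 6400 to 2900, and the stromal Pdgfra went from 13000 to 7300. The sum of the 6 uterine tissue markers was 81500 to 89800 in vehicle, 64300 to 71200 under BPA, 63300 to 79800 under HPTE and 58300 to 63700 under E2. The part of these markers in the results was not tested. With normexp background correction Ccnb1, Cdc25c and Aurkb were not called under BPA, nor Cdc25c under HPTE, and with spike-in scaling Aurka was not called under BPA.

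**Figure D1:**
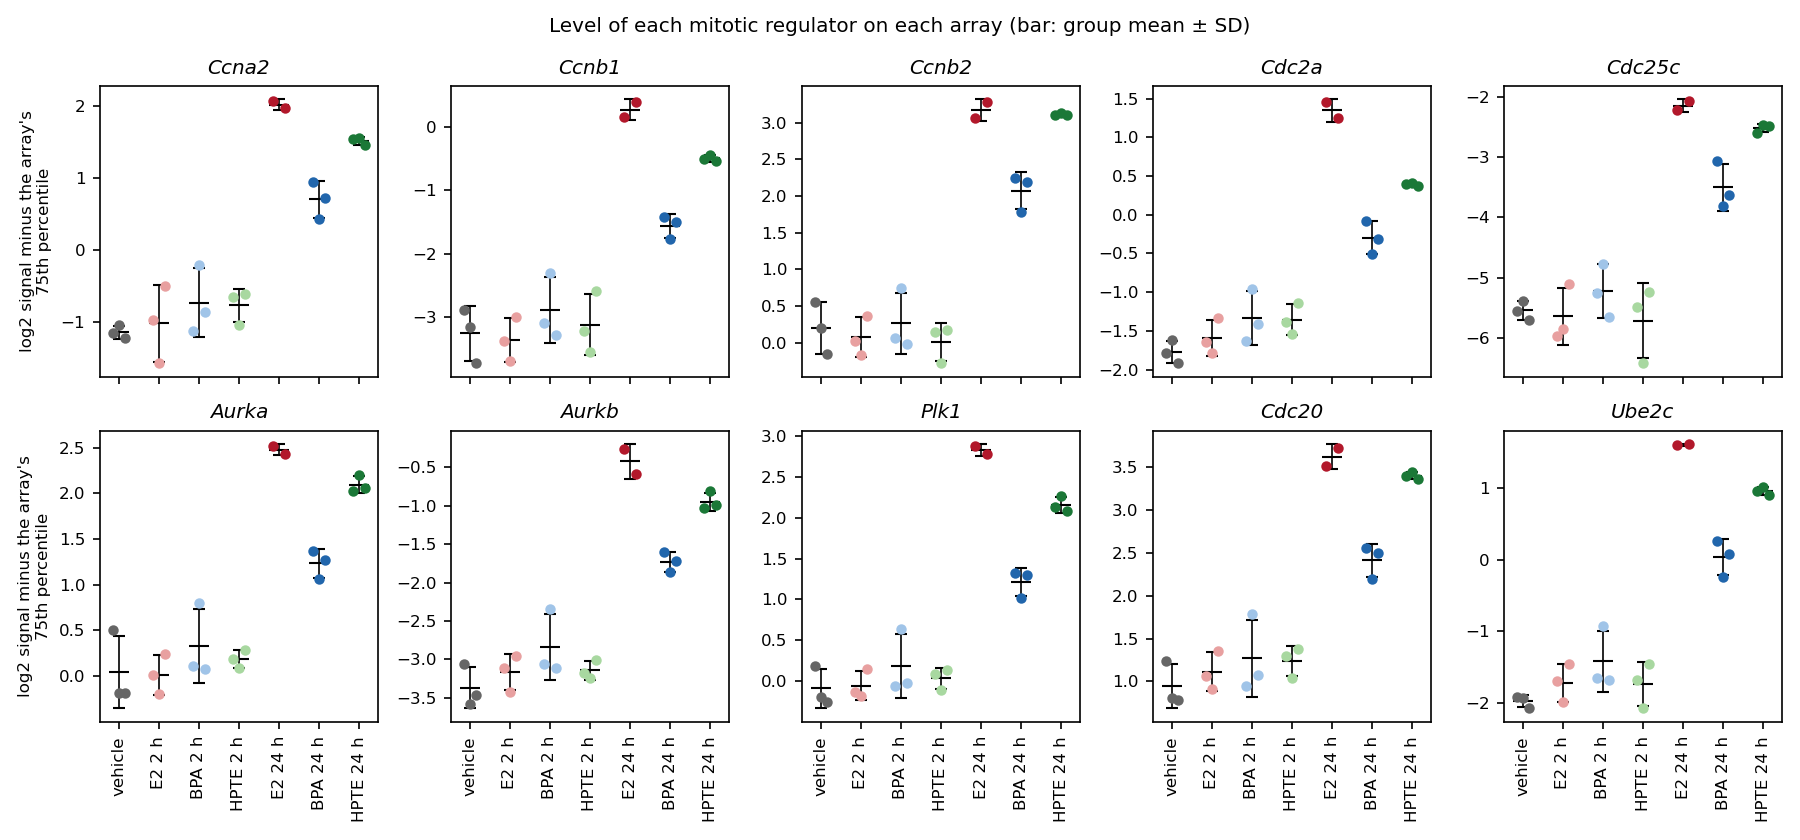
Each panel plots 1 gene as log2 signal minus the array's 75th percentile, with a point per array and the group mean ± SD as a bar. The 24 h groups stand above vehicle in all 10 panels, with E2 highest, BPA lowest of the 3 compounds, and HPTE between them or, for Ccnb2, level with E2.

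Among the cyclins, Ccna2, which partners CDK2 in S phase and CDK1 afterwards, had signals of 750, 812 and 720 arbitrary units on the vehicle arrays after scaling to a common 75th percentile. It had 7080 and 6580 under E2 at 24 h, 3240, 2270 and 2780 under BPA, and 4890, 4950 and 4620 under HPTE. The 4 groups did not overlap, and the changes from vehicle were 3.17 ± 0.27 (SE) for E2, 1.85 ± 0.25 for BPA and 2.67 ± 0.25 for HPTE. Ccnb1, the main cyclin of mitotic entry, had 227, 188 and 126 in vehicle. It had 1870 and 2190 under E2, 629, 492 and 594 under BPA, and 1180, 1240 and 1150 under HPTE. These rises were 11.5-fold, 3.24-fold and 6.77-fold. Ccnb2, the other B cyclin of dividing somatic cells, had 2460, 1930 and 1510 in vehicle and 7980, 5760 and 7690 under BPA. Its signals under HPTE (14400, 14700 and 14500) fell between those of the E2 arrays (14100 and 16200). The cyclin B2 transcript was thus the one member whose E2 and HPTE arrays overlapped. Cdc2a, the catalytic partner of these cyclins, had 486, 546 and 446 in vehicle. It rose to 4580 and 3980 under E2, to 1590, 1190 and 1350 under BPA and to 2210, 2230 and 2180 under HPTE, changes of 3.12 ± 0.19, 1.48 ± 0.17 and 2.17 ± 0.17 (SE).

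Cdc25c encodes the phosphatase that removes inhibitory phosphates from CDK1. Its signal was 35.9, 40.3 and 32.4 in vehicle, 359 and 399 under E2 at 24 h, 201, 119 and 136 under BPA and 276, 303 and 300 under HPTE. The rises were 10.5-fold, 4.11-fold and 8.12-fold, with the vehicle, BPA, HPTE and E2 arrays in 4 separate ranges. Plk1, a kinase that promotes CDK1 activation and centrosome maturation, had 1910, 1470 and 1400 in vehicle. It had 12300 and 11500 under E2, 4210, 3410 and 4130 under BPA and 7340, 8050 and 7080 under HPTE. Its changes of 2.91 ± 0.19, 1.30 ± 0.17 and 2.24 ± 0.17 (SE) were larger than the spread within any group. Aurka, the kinase of centrosomes and spindle poles, had the smallest rise of the 10 under each compound, from 2370, 1470 and 1470 in vehicle to 9620 and 9060 under E2. BPA arrays had 4320, 3500 and 4050 and HPTE arrays had 6810, 7710 and 7000. The Aurka changes were 2.43 ± 0.22, 1.19 ± 0.20 and 2.05 ± 0.20 (SE) for E2, BPA and HPTE. Aurkb, the kinase of the chromosomal passenger complex, had 200, 141 and 152 in vehicle and 1400 and 1120 under E2. It had 551, 462 and 510 under BPA and 821, 956 and 842 under HPTE, rises of 7.70-fold (E2), 3.12-fold (BPA) and 5.36-fold (HPTE).

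The members that act at the exit from mitosis rose alongside those of entry. Cdc20 activates the anaphase-promoting complex at the end of metaphase. It had 3970, 2940 and 2880 in vehicle, 19300 and 22300 under E2, 9860, 7690 and 9460 under BPA and 17800, 18300 and 17200 under HPTE. Its changes were 2.68 ± 0.22, 1.47 ± 0.20 and 2.46 ± 0.20 (SE). Ube2c is the ubiquitin-conjugating enzyme that works with that complex, and it had the largest rise of the 10 under E2. Its signals were 444, 439 and 398 in vehicle, 5100 and 5150 under E2, 2010, 1430 and 1770 under BPA and 3280, 3400 and 3140 under HPTE. The changes were 3.59 ± 0.22 (SE, adjusted p = 6.71e-09), 2.01 ± 0.20 (adjusted p = 9.11e-05) and 2.94 ± 0.20 (adjusted p = 6.26e-07, limma).

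**Figure D2:**
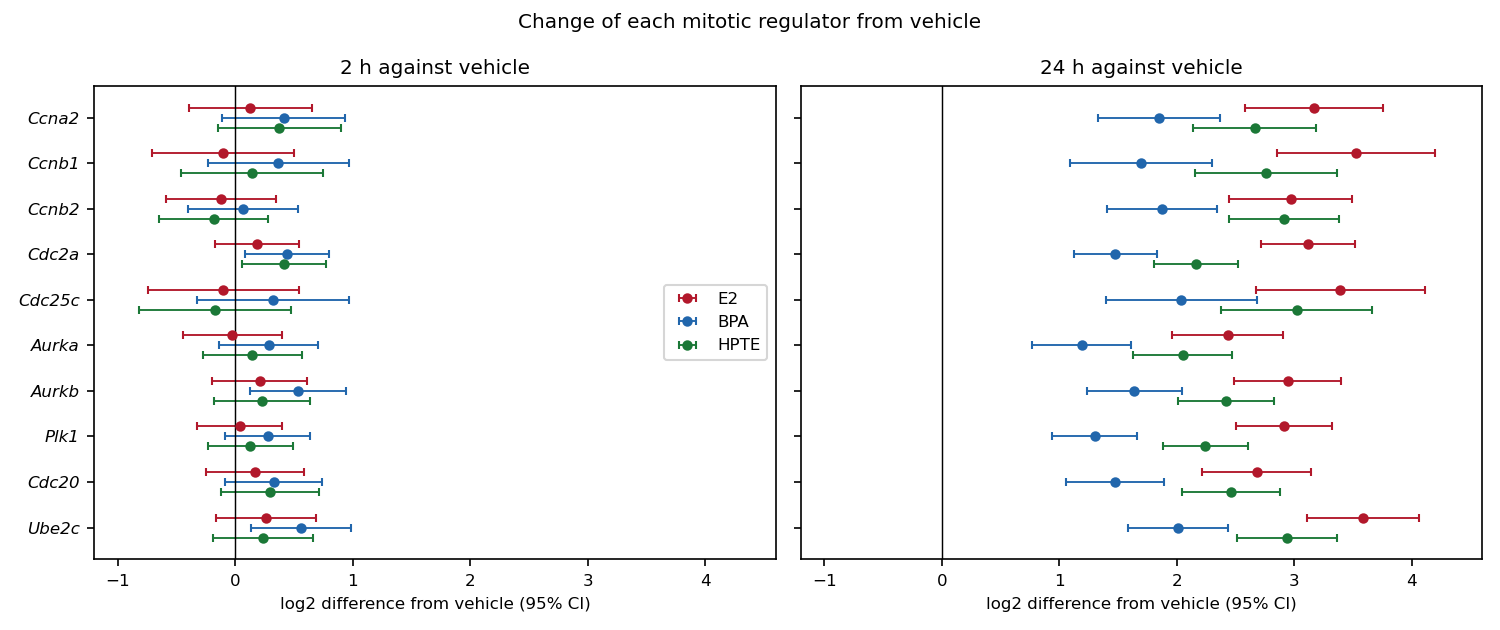
The log2 difference from vehicle is plotted on the horizontal axis with its 95% confidence interval for each gene under E2, BPA and HPTE, at 2 h on the left and 24 h on the right. At 2 h the points lie between -0.19 and 0.56, while at 24 h none is below 1.19.

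In all, 14 probes carried the names of the 10 genes, and at 24 h all of them were called higher than vehicle under each compound. The second Cdc25c and second Cdc2a probes passed the background filter only through 24 h groups, where they were high. Their calls against vehicle are therefore no support. The other 2 Ccnb1 probes changed by 3.39 and 3.45 under E2, 2.17 and 2.15 under BPA, and 3.11 and 2.98 under HPTE. The second Cdc25c probe did not stand well above background in vehicle, so its rise was at least 12.3-fold under E2, 3.95-fold under BPA and 8.1-fold under HPTE. These bounds take as the vehicle level, per array, the dimmest signal of any probe that was well above background. The second Cdc2a probe was likewise dim in vehicle and gave at least 2.0-fold, 1.91-fold and 1.27-fold in the same order. Under HPTE at 24 h 2 of 3 arrays were above background. On this dim probe HPTE was below BPA at 24 h by 0.59 ± 0.51 (SE, adjusted p = 0.557), the opposite sign to the brightest Cdc2a probe.

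HPTE and BPA were compared at the same dose by mass and the same time. There were 20 differences, 10 genes at 2 times, with p values adjusted over all probes in each comparison. At 24 h HPTE was above BPA for all 10 genes, by a median of 0.93 (range 0.69 to 1.06), and every HPTE array was above every BPA array in each gene, as in 18.1% of all probes. The difference was called for 8 genes, against 2.99% of tested probes. Plk1 differed by 0.94 (95% interval 0.58 to 1.30, adjusted p = 0.0124), Cdc20 by 0.99 (0.57 to 1.40, adjusted p = 0.0160) and Ccnb2 by 1.04 (0.57 to 1.51, adjusted p = 0.0198, limma). Ccnb1 had the largest difference, 1.06 (0.46 to 1.67, adjusted p = 0.0479), and Cdc2a the smallest, 0.69 (0.33 to 1.05, adjusted p = 0.0340). The Cdc2a call rested on its brightest probe, and the dim second probe had the opposite sign. With the mean over the probes of a gene, Cdc2a differed by 0.05 (adjusted p = 0.953) and Cdc25c by 1.01 (adjusted p = 0.0442, limma). Aurka, Aurkb and Ube2c were also called, with differences of 0.86, 0.78 and 0.93. Ccna2 (0.82, 0.29 to 1.34, adjusted p = 0.0733) and Cdc25c (0.98, 0.34 to 1.62, adjusted p = 0.0786) missed the threshold. The second Cdc25c probe passed it (1.04 ± 0.24, SE, adjusted p = 0.0297). That probe met the background filter only through 24 h groups, so this call is not used as support. Slides 5 and 6 each held an array of both groups, and HPTE was higher for all 10 genes on each, by 0.45 to 0.87 on slide 5 and 0.72 to 1.15 on slide 6. The number called rested on single arrays: it was 0 without BPA 24 h replicate 2 or HPTE 24 h replicate 2, 5 and 3 without BPA 24 h replicates 1 and 3, and 2 and 4 without HPTE 24 h replicates 1 and 3, with medians between 0.81 and 1.02. It was also 0 with slide as a fixed block, without scaling, when scaled to the spike-in probes and with only the groups compared. With normexp background correction it was 1. With scan day as a fixed block Ccnb1 was not called (adjusted p = 0.0595, limma). Lymphocyte markers summed to 13100, 21200 and 10700 on BPA 24 h replicates 1 to 3 and to 16300, 9330 and 12300 on those of HPTE. Myeloid markers summed to 27800 to 31500 under BPA and 13800 to 28800 under HPTE, next to 12500 to 22500 in vehicle. The part of these cells in the difference was not tested.

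**Figure D3:**
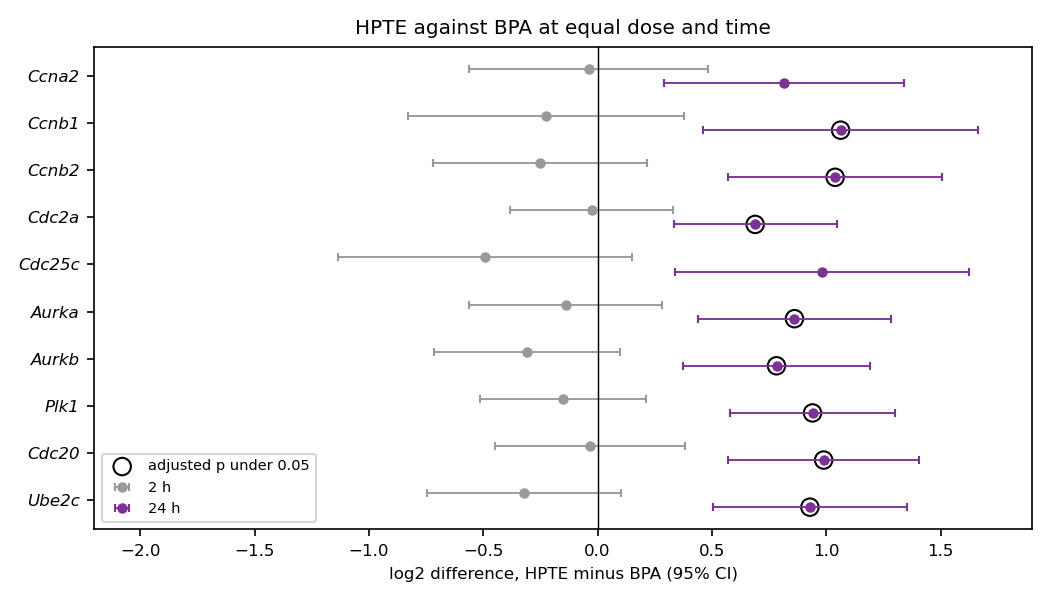
Points are HPTE minus BPA on the log2 scale with 95% confidence intervals for each gene at 2 h (grey) and 24 h (purple), and circles mark an adjusted p under 0.05. All 10 purple intervals lie above 0, 8 of the points are circled, and all 10 grey intervals cross 0.

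At 2 h the same comparison called 0 of 10 genes by limma, against 0.437% of probes, and 0 had an unadjusted p under 0.05. HPTE minus BPA lay between -0.49 and -0.03 with a median of -0.19. The intervals were wide: that of Plk1 ran from -0.51 to 0.21 and that of Cdc25c from -1.14 to 0.15. Whether the difference between HPTE and BPA itself changed from 2 h to 24 h was not tested.

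Against E2 at 24 h, BPA was lower for all 10 genes, with 10 called lower (24.6% of probes), a median of -1.34 and no overlap between arrays, against 31.5% of probes with all BPA arrays lower. The gap was widest for Ccnb1 (-1.83 ± 0.32, SE) and narrowest for Ccnb2 (-1.10 ± 0.24, SE). HPTE was lower than E2 by a median of 0.51, and 3 genes were called lower (21.6% of probes). These were Cdc2a (-0.95, adjusted p = 0.000612), Plk1 (-0.67, adjusted p = 0.00845) and Ube2c (-0.65, adjusted p = 0.0254). Aurkb (-0.52, adjusted p = 0.0547) and Ccnb1 (-0.77, adjusted p = 0.0560) lay near the threshold. For Ccnb2 the difference was -0.06 (95% interval -0.58 to 0.46), and for Cdc20 it was -0.22 (-0.69 to 0.24). Arrays of HPTE and E2 did not overlap for 9 of the 10 genes, and HPTE arrays lay wholly below E2 arrays for 29.4% of all probes. With the doses unequal by mass, these values place the groups side by side and rank no compound's potency. The count of 3 became 1 without E2 24 h replicate 2 or with spike-in scaling, 5 without BPA 2 h replicate 2 or 3, and 8 with only the groups compared in the fit.

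**Figure D4:**
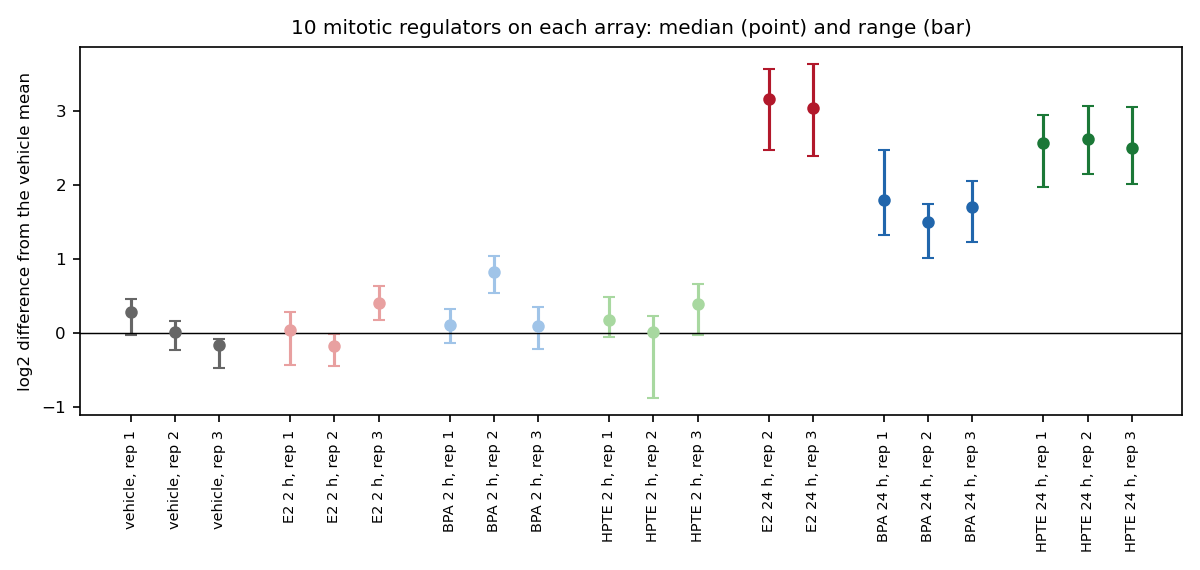
For each array the point is the median, and the bar the range, of the log2 differences of the 10 genes from their vehicle means. At 2 h, BPA replicate 2 stands apart at 0.83, while the 24 h arrays lie at 3.05 and 3.16 (E2), up to 1.80 (BPA) and 2.51 to 2.63 (HPTE).

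At 2 h few of the regulators were called. E2 called 0 of 10 by limma, against 28.1% of probes in either direction, with a median difference of 0.08 (range -0.12 to 0.26) and 0 genes at an unadjusted p under 0.05. HPTE called 0 of 10, against 48.1% of probes, with a median of 0.18, and 1 gene, Cdc2a, had an unadjusted p under 0.05 (0.41 ± 0.17, SE, adjusted p = 0.0527). Leaving out any 1 of 6 arrays brought the HPTE count to 1, these being vehicle replicate 2, E2 2 h replicate 3, BPA 2 h replicates 1 and 2, BPA 24 h replicate 1 and HPTE 2 h replicate 2. BPA called 3 higher, against 19.3% of probes, namely Cdc2a (0.44 ± 0.17, SE), Aurkb (0.53 ± 0.19, SE) and Ube2c (0.56 ± 0.20, SE). BPA 2 h replicate 2 carried much of this. Its median difference from vehicle over the 10 genes was 0.83 and all 10 lay above every vehicle array, whereas replicates 1 and 3 had medians of 0.11 and 0.10 with 3 genes each above the vehicle arrays. For Aurkb the BPA 2 h arrays read 202, 331 and 194, next to 200, 141 and 152 in vehicle. Ube2c read 536, 883 and 523, above the vehicle arrays on all 3. The BPA count was 0 without BPA 2 h replicate 2 or vehicle replicate 3 and 1 without vehicle replicate 2, and 0 with slide as a fixed block. Within slides the sign at 2 h was not constant: on slide 1, with vehicle replicate 1, the medians were -0.36 (E2), -0.14 (BPA) and -0.25 (HPTE), and on slide 3, with vehicle replicate 2, they were 0.14 (BPA) and 0.47 (HPTE). BPA 2 h replicate 2 shared no slide with a vehicle array. Lymphocyte markers (11, all above background on these arrays) summed to 31500, 23400 and 11100 on BPA 2 h replicates 1 to 3. On vehicle arrays they summed to 10900 to 13600. For 6 myeloid markers the sums were 138000, 27200 and 15800 on the same replicates and 12500 to 22500 on vehicle arrays. The part of these cells in the 2 h results was not tested. All vehicle arrays carried the 24 h label, so time after injection differed in the comparisons at 2 h.

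Cyclin B1 at 2 h depended on the probe. On its brightest probe the vehicle arrays read 227, 188 and 126 and covered most of the treated arrays, and no compound was called. The second probe read 93.2, 84.5 and 75.1 in vehicle, 113, 112 and 156 under E2, 125, 211 and 131 under BPA, and 128, 102 and 152 under HPTE. Its changes at 2 h were 0.58 (E2, adjusted p = 0.0418), 0.85 (BPA, adjusted p = 0.00242) and 0.58 (HPTE, adjusted p = 0.0252, limma). Of all tested probes, 28.1% (E2) and 48.1% (HPTE) were called in either direction at 2 h, and 19.3% were called higher under BPA. The remaining probe gave 0.46 (adjusted p = 0.0769), 0.91 (adjusted p = 0.00091) and 0.60 (adjusted p = 0.0139). The 3 probes lie within the same gene on chromosome 13 of mm7, at 97885282 to 97885341, 97884622 to 97884681 and 97885016 to 97885075 on the minus strand. The second Cdc25c probe was dim in vehicle and above background on 2 of 3 BPA 2 h arrays. It gave only a bound of at least 1.09-fold under BPA at 2 h, and the bound itself was not tested.

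No difference of BPA or HPTE from E2 was called at 2 h. BPA against E2 called 0 by limma (19.0% of probes), with differences of 0.16 to 0.47, and HPTE against E2 called 0 (16.6% of probes), with differences of -0.07 to 0.25. At an unadjusted p under 0.05 both counts were 0.

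Between 2 h and 24 h the level of all 10 genes was higher at the later time within each compound, with no overlap of arrays, as for 31.2% (E2), 32.7% (BPA) and 35.0% (HPTE) of all probes. The time difference was called for 10 genes under E2 (25.9% of probes), with a median of 2.99, and for 10 under HPTE (29.5% of probes), with a median of 2.24. BPA gave 10 (28.2% of probes) with a smaller median of 1.24. This difference under BPA ran from 0.91 for Aurka to 1.81 for Ccnb2. Under HPTE it ran from 1.75 for Cdc2a to 3.19 for Cdc25c. With normexp background correction the BPA count was 6, and with spike-in scaling it was 4.

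Genes of the same process that are no members were read from lists. Of 10 chromosomal passenger and separation genes, 9 were called higher and 1 lower at 24 h under each compound, and under BPA 5 were higher with normexp background correction or when scaled to the spike-in probes. The shares of all probes called higher, against which every list below is read, were 26.3% (E2), 5.09% (BPA) and 14.9% (HPTE). Of the 32460 probes tested, 12189 (E2), 2607 (BPA) and 6202 (HPTE) were called lower, against which the lower counts are read. Birc5 (survivin, a subunit of the passenger complex) rose by 3.34, 1.75 and 2.76 under E2, BPA and HPTE, Cdca5 by 3.05, 1.35 and 2.17 and Cdca8 by 2.98, 1.42 and 2.32. Pttg1 (securin, the separase inhibitor) was the one that fell, by 0.54, 0.25 and 0.22. The medians of this list were 2.57, 1.37 and 2.10, next to -0.15, -0.03 and -0.06 for all probes. Of 20 other genes of mitotic entry, 17, 12 and 15 were higher, and 0, 1 and 1 lower. With normexp background correction 4 and 9 were higher under BPA and HPTE, and scaled to the spike-in probes 4 were higher under BPA. The lower calls were Pkmyt1 under BPA (-0.39) and Cdc25a under HPTE (-0.46), named after their values were seen, as are the genes below that are not among the extremes of a list. Melk rose by 3.45, 1.60 and 2.46, Pbk by 3.27, 1.09 and 1.80 and Gtse1 by 2.92, 1.15 and 1.82, while Ensa differed by 0.04, -0.09 and 0.15 and was not called. Of 15 subunits and regulators of the anaphase-promoting complex, which Cdc20 and Ube2c serve, 8, 1 and 5 were higher for E2, BPA and HPTE, with medians of 0.25, 0.01 and 0.17. The BPA count is near the share of all probes, and scaled to the spike-in probes the counts were 1, 0 and 0. Under BPA Anapc7 was the one higher (0.31) and Anapc11 the one lower (-0.24), and the count of 1 became 0 or 2 when any of 14 arrays was left out. The HPTE count was 3 without HPTE 24 h replicate 1 or 2. Ube2s, which extends the ubiquitin chains, was higher by 1.07 under E2 and differed by 0.23 (BPA) and 0.43 (HPTE), neither called. Fzr1, the activator used after Cdc20, rose by 0.75 under E2 and 0.52 under HPTE. Anapc1 rose by 0.73 and 0.20 in these groups, and Anapc5 differed by -0.01 and -0.01. Under BPA these 3 differed by 0.18, 0.03 and -0.17, none called. Both proliferation markers rose under every compound, Mki67 by 2.57, 1.85 and 2.62 and Top2a by 3.19, 1.74 and 2.16.

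The preceding phases of the cell cycle were read the same way. Of 16 genes of replication licensing and DNA synthesis, 16 were higher under E2 at 24 h, with a median of 1.92. Under BPA 1 was higher and 3 were lower, with a median of 0.04 (Mcm2 by -0.49, Mcm4 by -0.43 and Mcm7 lower), and under HPTE 10 were higher and 1 lower, with a median of 0.42. Tk1, the salvage thymidine kinase, rose under all 3 (3.53, 1.27 and 2.20). Cdc6, which loads the replicative helicase, rose by 3.34 under E2 and 0.67 under HPTE and differed by 0.11 under BPA (adjusted p = 0.792). Rrm2, a ribonucleotide reductase subunit, rose by 2.85 and 1.13 and differed by 0.64 under BPA (adjusted p = 0.184). Mcm7, a helicase subunit, rose by 0.46 under E2, fell by 0.32 under BPA and differed by -0.17 under HPTE. The HPTE count was 5 with normexp background correction, 6 without scaling and 1 when scaled to the spike-in probes, and the BPA count ran from 0 to 4 over the settings and was 2, 3 and 2 without BPA 2 h replicates 1 to 3. HPTE against BPA called 9 of these 16 genes higher and 0 lower, next to 2.99% of all probes, with a median of 0.43. That count was 0 with normexp background correction, without scaling, scaled to the spike-in probes, with slide as a fixed block and with only the groups compared. It was 3, 1 and 2 without BPA 24 h replicates 1, 2 and 3, and 2 and 0 without HPTE 24 h replicates 1 and 2. Of 14 genes of the G1 and S phases, 10, 1 and 3 were higher and 3, 3 and 2 lower under E2, BPA and HPTE. The BPA and HPTE counts of higher genes were near the shares of all probes. Under E2 and HPTE the lower genes were a smaller share than among all tested probes, and under BPA, with 3 genes, a larger one. Ccne1 and Ccne2, the E cyclins, rose by 2.86 and 2.42 under E2, with differences of -0.29 and -0.23 under BPA and 0.47 and 0.36 under HPTE, not called. E2f1 rose by 2.68 under E2 and 1.14 under HPTE and differed by 0.52 under BPA, where E2f2 was the one called higher (0.73, not called without BPA 24 h replicate 2). Myc fell by 0.72 under BPA and differed by 0.20 and -0.37 under E2 and HPTE.

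**Figure D5:**
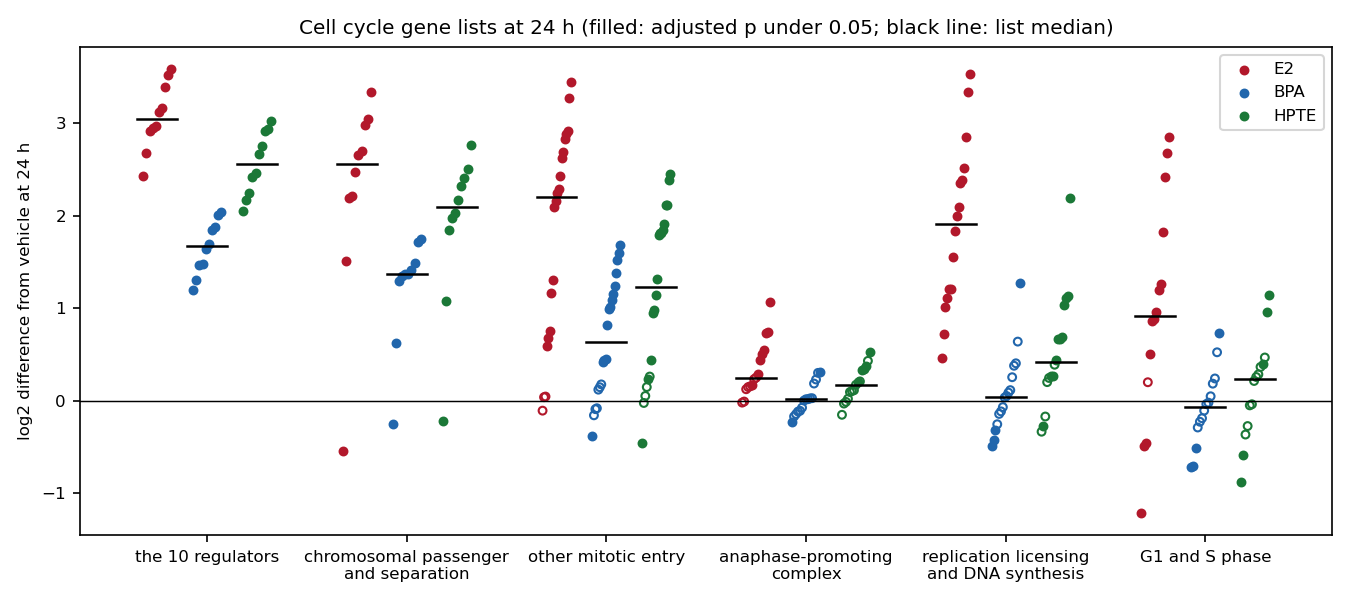
Each point is the log2 difference of 1 gene from vehicle at 24 h, by gene list and compound, filled where the adjusted p was under 0.05, with a black line at the list median. The BPA medians are 1.67 for the 10 regulators and 0.04 for the replication genes, while those of E2 are 3.05 and 1.92.

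The 10 regulators varied together over the 20 arrays. The Pearson r of each with the mean of the other 9 was 0.984 for the lowest 2 (Cdc2a and Cdc25c) and up to 0.997 for Ube2c, a description across arrays that share the group differences. Among all other symbols on the array the 5 most like the mean of the regulators were Birc5 (r = 0.998), Cdca8 (0.997), Foxm1 (0.996), Sgol1 (0.996) and Kif4 (0.996). Their differences from vehicle under E2, BPA and HPTE at 24 h were 3.34, 1.75 and 2.76 for Birc5 and 2.63, 1.39 and 2.12 for Foxm1.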

How the data were processed

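Uterine RNA was labelled with Cy3 and hybridized to 20 one-colour Agilent arrays. The deposited files hold spot intensity, background subtracted by the authors with Agilent Feature Extraction 9.5 and not scaled between arrays. The series matrix held the same intensity (relative tolerance 1e-06). Flags for background and outliers, of type other per the file headers, were used as filters, and outlying spots (46 to 134 per array) were left out.

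From log2 intensity the array's own 75th percentile was subtracted (1320 to 2046, median 1679). Of 41174 probes, 32460 were tested, those well above background on every array of a group and missing on at most 2 arrays. A means model over 7 groups was fitted in R 4.3.3 with limma 3.58.1 (lmFit and eBayes, two-sided, Benjamini-Hochberg within a comparison), and checked on simulated data. Intervals are 95%. Signals in arbitrary units are scaled to the median 75th percentile. Groups came from the labels, which swap the tags for time and treatment. Probe coordinates are mm7 per the file headers. Named genes were the 10 members and, from each list, the 3 largest and the smallest change under E2 at 24 h, plus the 5 symbols most like the members over the arrays. The members and lists were chosen with earlier results of these data known. The paper's methods name two-colour arrays for these compounds, so the error model used there was not repeated here. The 3 vehicle arrays serve all comparisons with vehicle. Alternatives were 15 settings and leaving out each of the 20 arrays.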

Additional observations from a re-analysis of the deposited data

Results flagged for a closer look

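The levels of all 10 regulators differed between 2 h and 24 h within each compound. The count was 10 for E2, 10 for BPA and 10 for HPTE (limma, 24 h against 2 h). All vehicle arrays carried the 24 h label, so whether the change from a time-matched vehicle differed between the times was not tested. No group held 4 arrays or more, so no array was tested as an outlier.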

How the results depend on the processing

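The 24 h counts against vehicle stayed at 10 under E2 in all 35 alternatives, ran from 7 to 10 under BPA and from 9 to 10 under HPTE, and no direction changed. Other counts and medians moved. Normexp background correction gave medians at 24 h of 2.85 (E2), 1.34 (BPA) and 2.22 (HPTE) against vehicle and 2.10 for HPTE 24 h against 2 h. With it 6 members were called for BPA 24 h against 2 h, where Cdc25c reversed to -0.32, 4 for HPTE against BPA and 3 for BPA against E2 at 2 h, and 1 for HPTE against BPA at 24 h. List counts with it were 4 and 9 (other mitotic entry, BPA and HPTE), 0 and 2 (anaphase-promoting complex), 5 (chromosomal passenger, BPA), 0 and 1 (G1 and S phase) and 5 (replication, HPTE). Spike-in scaling gave 0 members for BPA at 2 h, 4 for BPA 24 h against 2 h, 0 for HPTE against BPA at 24 h and 1 for HPTE against E2 at 24 h. Its medians were 0.43 (HPTE 2 h against vehicle), 2.25 (HPTE 24 h), 1.69 (HPTE 24 h against 2 h), 0.75 (HPTE against BPA at 24 h), 0.43 (HPTE against E2 at 2 h), -1.48 (BPA against E2 at 24 h) and -0.84 (HPTE against E2 at 24 h). List counts were 1, 0 and 0 for the anaphase-promoting complex (E2, BPA, HPTE), 4 and 5 for the other entry and passenger lists under BPA, 0 and 0 for G1 and S phase (BPA, HPTE) and 0 and 1 for replication. With it the median of all probes at 24 h was -0.13, -0.16 and -0.37 for E2, BPA and HPTE, and the members lay 3.20, 1.70 and 2.62 above that median. Calls were then higher for 8.84% of probes called under HPTE at 24 h, next to 43.9% in the main analysis. With no scaling the counts were 1 (BPA 2 h), 0 (HPTE against BPA at 24 h) and 1 (HPTE against E2 at 2 h). The medians were 3.25 (E2 24 h against 2 h), 1.99 (HPTE 24 h against 2 h), 0.48 (HPTE against E2 at 2 h), -1.48 and -0.66 (BPA and HPTE against E2 at 24 h), and the lists gave 0 and 1 (anaphase-promoting complex, BPA and HPTE), 0 (G1 and S phase, BPA) and 6 (replication, HPTE). Quantile normalization called 2 members for HPTE at 2 h and 2 list genes of the anaphase-promoting complex under HPTE. The cause was not tested for any of these. The settings for the gene lists were added after seeing the data.

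Without the filter on dim probes 5 members were called for HPTE against BPA at 24 h, and 0 and 3 list genes of the anaphase-promoting complex under BPA and HPTE. With only probes above background on all arrays 1 member was called for HPTE at 2 h and 5 for HPTE against E2 at 24 h. Slide as a fixed block gave 0 members for BPA at 2 h, 0 for HPTE against BPA at 24 h, and 0 and 2 list genes of that complex, for which scan day gave 0 and 3. With only the 2 groups compared the counts were 0 (BPA 2 h), 1 (HPTE 2 h), 0 (HPTE against BPA at 24 h) and 8 (HPTE against E2 at 24 h), with 0 and 3 for that complex and 2 for replication under BPA. Array weights gave 6, 2 and 5 for BPA 2 h, HPTE 2 h and HPTE against E2 at 24 h, with 2 for the complex and 4 for replication under BPA. The eBayes trend gave 1 and 5 for HPTE 2 h and HPTE against E2 at 24 h. Requiring at least 2-fold as well left 0 (BPA 2 h), 2 (HPTE against BPA at 24 h) and 0 (HPTE against E2 at 24 h), and list counts of 1, 0 and 0 (complex), 6, 0 and 1 (G1 and S phase) and 4 (replication, HPTE). With the replicate block the count for HPTE against BPA at 24 h was 5, and it changed no other count by over 1.5 times. Arrays with the same replicate number did not on average deviate together (mean r -0.025, range -0.36 to 0.33). For arrays of different groups on the same slide the mean r was 0.095 (range -0.142 to 0.514). Whether a replicate number marks anything shared was not tested.

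Leaving out single arrays gave 0 to 3 members for BPA at 2 h, 0 to 1 for HPTE at 2 h, 0 to 9 (median 0.81 to 1.02) for HPTE against BPA at 24 h and 1 to 5 (median -0.60 to -0.45) for HPTE against E2 at 24 h. The median for BPA against E2 at 24 h ran from -1.51 to -1.22. Lists ran from 0 to 2 (BPA) and 3 to 6 (HPTE) for the anaphase-promoting complex, 0 to 1 for G1 and S phase under BPA and 1 to 3 for replication under BPA. For replication genes in HPTE against BPA at 24 h the count of 9 ran from 0 to 10 when single arrays were left out. It was 0 with normexp, no scaling, spike-in scaling, slide as a fixed block, only the groups compared or at least 2-fold, and 4 with quantile normalization. Dim probes, such as the second Cdc2a and Cdc25c probes, limit the signal over background.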
